A study of Mus musculus with 12 samples.

Results

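The 7 genes described here, Rora, Ahr, Maf, Batf, Irf4, Hif1a and Runx1, encode transcription factors that act in the choice of the Th17 fate, the helper T cell lineage that makes interleukin 17. Every probe set annotated to 1 of these genes alone was taken, which gave 30 of the 45037 probe sets that are not controls and 7 of the 18193 genes that such probe sets name. RNA of CD4+ T cells from female mice was measured on 12 Affymetrix Mouse Genome 430 2.0 arrays, a one-colour platform that reads each transcript with short probes near its 3′ end, and the study set up its comparisons around Th17 cells. SKG cells came from SKG mice of 40 weeks, which carry on the BALB/c background a defect in the T cell receptor kinase ZAP-70, and were FR4-negative CD4+ cells of lymph node stimulated with PMA (a phorbol ester) and ionomycin (a calcium ionophore). BALB cells came from BALB/c mice of 40 weeks under the same stimulation, but BALB replicate 1 is labelled as CD4+ cells of spleen and lymph node with no FR4 sort. IFN-γ-deficient transfer cells were taken from the spleen of RAG2-deficient BALB/c mice 7 days after they received CD4+ T cells of IFN-γ-deficient BALB/c donors. IL-6-deficient transfer cells were taken likewise after CD4+ T cells of IL-6-deficient BALB/c donors entered hosts lacking both IL-6 and RAG2, so donor and host genotype differ together between the transfer groups. The labels give the transfer mice an age of 7 weeks and name no stimulation. RAG2-deficient hosts lack their own mature T and B cells and keep myeloid and innate cells. Each group had 3 arrays, and nothing in the labels says that they came from separate animals, so each p-value reflects only how these arrays spread, which may be technical.

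BATF and IRF4 bind DNA together at composite sites early after T cell activation and open chromatin on which later Th17 factors act. c-MAF, encoded by Maf, drives interleukin 21 and interleukin 10 in several helper T cell types. The aryl hydrocarbon receptor, encoded by Ahr, is a ligand-activated sensor of small aromatic molecules that shapes the cytokine output of Th17 cells. RORα, encoded by Rora, is a nuclear receptor that promotes the Th17 programme. RUNX1 acts at Th17 genes and works with FOXP3 in regulatory T cells, and HIF-1α, the oxygen-regulated subunit of HIF-1, favours glycolysis and the Th17 over the regulatory fate.

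RefSeq start-site windows (assembly GRCm38.p6, 250 bases before to 50 after the start) were found for 5 of the 7 genes, namely Rora, Batf, Irf4, Hif1a and Runx1. Of these, Rora, Hif1a, Batf and Irf4 each have a probe set that differed between SKG and BALB cells, and the windows of the last 3 are shown. All 3 lie on the plus strand, Hif1a at chr12:73907617-73907916, Batf at chr12:85686470-85686769 and Irf4 at chr13:30748983-30749282, and capitals mark matches to the core motifs of the 7 factors on either strand.
Hif1a: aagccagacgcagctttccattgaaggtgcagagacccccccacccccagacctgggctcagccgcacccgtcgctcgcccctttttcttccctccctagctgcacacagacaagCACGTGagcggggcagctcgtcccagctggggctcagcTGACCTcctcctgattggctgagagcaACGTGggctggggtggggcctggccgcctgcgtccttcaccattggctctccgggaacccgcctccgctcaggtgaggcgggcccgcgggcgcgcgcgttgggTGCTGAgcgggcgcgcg
Batf: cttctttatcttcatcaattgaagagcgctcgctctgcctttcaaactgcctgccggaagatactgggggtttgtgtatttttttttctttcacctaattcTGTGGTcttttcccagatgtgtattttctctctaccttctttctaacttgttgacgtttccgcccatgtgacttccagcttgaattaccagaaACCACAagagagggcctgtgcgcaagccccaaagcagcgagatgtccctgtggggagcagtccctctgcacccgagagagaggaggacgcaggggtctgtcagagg
Irf4: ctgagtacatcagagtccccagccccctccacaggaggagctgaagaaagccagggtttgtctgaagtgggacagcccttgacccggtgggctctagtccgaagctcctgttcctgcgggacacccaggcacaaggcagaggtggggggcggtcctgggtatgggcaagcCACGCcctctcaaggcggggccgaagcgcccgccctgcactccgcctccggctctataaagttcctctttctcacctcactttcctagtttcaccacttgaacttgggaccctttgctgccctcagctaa
The letters searched on both strands were TGANTCA (AP-1, bound by BATF with JUN), a pair of GAAA runs spaced by 2 bases (IRF), ACGTG (HIF-1), GCGTG (AHR), AGGTCA (ROR), TGTGGT (RUNX) and TGCTGA (part of the MAF element). The Hif1a window holds ACGTG at 3 positions, at -135 and -134 on opposite strands within 1 overlapping run and at -70, and this core is present in 19.6% of the 32851 windows of the table. It also holds AGGTCA at -97 on the minus strand and TGCTGA at 34, cores found in 16.3% and 19.5% of windows. The Batf window holds TGTGGT at -149 and, on the minus strand, at -56, against 16.8% of all windows with a match. The Irf4 window holds GCGTG at -80 on the minus strand, a core present in 32.4% of windows. The Rora window, which is not shown, holds ACGTG at -187 and GCGTG at -167, both on the minus strand. TGANTCA and the spaced GAAA pair, found in 7.81% and 3.44% of all windows, matched in none of the 5 genes. These are matches of letters in a short window and not measured binding.

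The deposited intensities had array medians from 15.7 to 27.7, and the arrays were brought to a common distribution before comparison. Levels are given as log2(intensity + 16) after quantile normalisation of all 12 arrays, which understates the change of dim probe sets and puts an intensity of 0 at 4. The T cell markers chosen for the check had a mean level over 6 markers of 9.76 to 9.84 in SKG and 9.49 to 9.79 in BALB arrays. It was 10.31 to 10.58 in IFN-γ-deficient transfer and 10.27 to 10.55 in IL-6-deficient transfer arrays. Single markers were dimmer. Cd4 averaged 6.89 in SKG and 6.67 in BALB cells, against 8.21 in the IFN-γ-deficient and 8.45 in the IL-6-deficient transfer. Cd3e averaged 7.94 in SKG and 7.32 in BALB cells, against 9.17 and 9.21 in the same transfer groups. The mean of the 4 plasma cell markers ran from 8.21 to 8.32 in SKG and from 7.47 to 7.88 in BALB arrays, and that of 7 B cell markers from 6.06 to 6.37 in SKG and from 5.29 to 6.05 in BALB arrays, where 4 of 4 and 5 of 7 markers reached the level needed for testing. Of these Ighm (log2 fold change 1.92), Xbp1 (1.01) and Derl3 (0.80) passed as higher in SKG cells. Ighm was bright in every group, far above the list mean. It averaged 12.11 in SKG and 10.19 in BALB cells, and 9.73 in the IFN-γ-deficient and 9.82 in the IL-6-deficient transfer. The other tested markers of both lists did not pass. Jchain, Blk (0.97), Cd79a (0.37) and Ms4a1 (0.31) had positive values, and the plasma cell marker Sdc1 (-0.64) and the B cell marker Ebf1 (-0.03) negative ones. Xbp1 averaged 12.25 in the IFN-γ-deficient and 12.21 in the IL-6-deficient transfer, where the plasma cell marker Jchain averaged 6.27 and 6.15. The T cell marker Cd5 passed as lower (-0.96), and of the 2 CD8 markers Cd8b1 passed as lower (-2.51) while Cd8a had a log2 fold change of 0.81 that did not pass. With the replicate number as a block Cd3g (1.05) and Eomes (1.62) passed as higher and Cd68 (-0.61) as lower. The means of the macrophage, dendritic, CD8, NK, neutrophil, mast, erythroid and stromal lists lay between 4.21 and 7.30 over all arrays. The neutrophil mean spread widely in the transfer groups, from 4.63 to 6.05 in the IFN-γ-deficient and from 4.35 to 7.30 in the IL-6-deficient transfer. It was 4.28 to 4.40 in SKG and 4.38 to 4.66 in BALB arrays. The ratio of 3′ to 5′ signal of the actin control, which rises as RNA is degraded, was 1.93 to 2.63 in SKG and 2.95 to 3.98 in BALB arrays. That of the Gapdh control overlapped, at 2.57 to 3.03 in SKG and 2.86 to 3.28 in BALB arrays. In the transfer groups replicate 3 stood apart, with actin ratios of 3.81 in the IFN-γ-deficient and 5.13 in the IL-6-deficient transfer, against 1.60 to 1.67 in replicates 1 and 2 of both groups. Its Gapdh ratios were 7.99 and 9.33, against 2.42 to 2.84 in replicates 1 and 2. The part of these marker and RNA differences in the results below was not tested, and values without replicate 3 stand beside the results that it moves.

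SKG cells carried more RNA of Maf and Ahr than BALB cells, by 7.39-fold and 3.06-fold at the brightest probe set of each gene. Batf was 1.70-fold higher and Hif1a 1.24-fold higher at the brightest probe set, while probe sets of Irf4 and Rora that passed the test were lower. Of the 30 probe sets, 27 were bright enough to test, and 9 were higher in SKG cells, 3 were lower and 15 did not pass (limma, Benjamini-Hochberg adjusted p under 0.05 over all 27022 probe sets tested). That is 44.4% called, beside 20.1% of all probe sets tested, of which 10.3% were higher and 9.88% lower. The median log2 fold change over the 27 was -0.07, beside -0.0037 over all probe sets. Between the transfer groups none of 28 tested probe sets of the 7 genes passed. A bulk level cannot tell fewer cells that express a gene from less RNA per cell, and this holds for every value given here. Whether the arrays of 2 groups lie apart is given below as a description. The share of all probe sets with such a gap was not computed, so a gap alone is no result about these genes. The count of 12 was 6 without SKG replicate 1, 7 without SKG replicate 2, 7 with no normalisation between arrays and 7 with all 12 arrays in one fit. The calls of Batf, of both Hif1a probe sets and of Rora 1455165_at were lost under each of these last settings, that of Irf4 with no normalisation and that of Rora 1458129_at with all 12 arrays. With replicates 1 and 2 only, 15 probe sets passed, 9 higher and 6 lower, while the share over all probe sets was 33.4%.

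**Figure D1:**
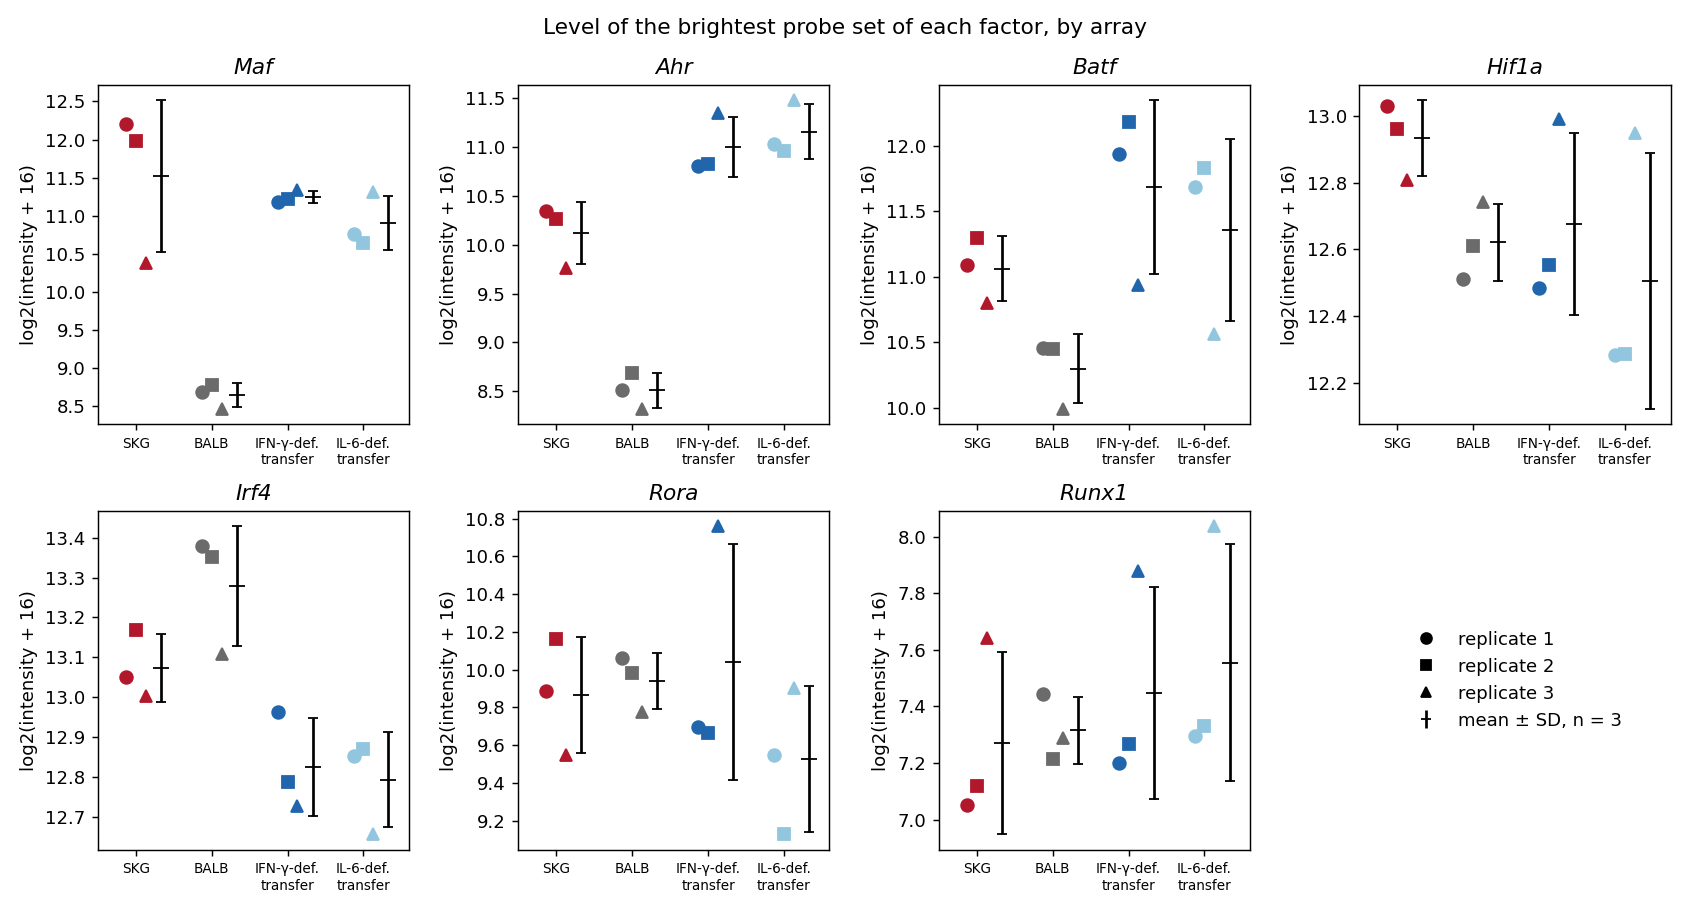
Level of the brightest probe set of each of the 7 genes on every array, as log2(intensity + 16), with the mean and SD of 3 arrays beside each group; axes do not start at 0 and differ between panels. Maf and Ahr are higher in all 3 SKG arrays than in any BALB array, and replicate 3 (triangles) of the transfer groups lies apart from replicates 1 and 2 for Batf, Hif1a and Runx1.

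Batf, the AP-1 family partner of JUN and IRF4, had a single probe set (1419410_at). Its level was 11.09, 11.30 and 10.80 in SKG replicates 1, 2 and 3, against 10.46, 10.45 and 9.99 in BALB replicates 1, 2 and 3. All SKG arrays lay above all BALB arrays, and replicate 3 was the lowest array of both groups. The means were 11.06 ± 0.25 in SKG and 10.30 ± 0.26 in BALB cells (SD, n = 3 each), and the log2 fold change was 0.76 with an SE of 0.18 (limma adjusted p = 0.0153). The call was lost without SKG replicate 1 (adjusted p = 0.0627) and without SKG replicate 2 (adjusted p = 0.0723).

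Irf4, the interferon regulatory factor induced by T cell receptor signalling, was read by a bright and a dimmer probe set. At the bright 1421173_at the level was 13.05, 13.17 and 13.002 in SKG arrays, against 13.38, 13.35 and 13.11 in BALB arrays. The groups overlapped, and the log2 fold change of -0.21 ± 0.09 did not pass (limma adjusted p = 0.159), though it did without BALB replicate 3 (-0.29, adjusted p = 0.0356). The dimmer 1421174_at stood at 7.78, 7.91 and 8.15 in SKG arrays, against 8.63, 8.64 and 8.96 in BALB arrays. There the groups did not overlap and the level fell by 0.79 ± 0.18 on the log2 scale (limma adjusted p = 0.0147), a call lost without SKG replicate 1 (adjusted p = 0.0685) or SKG replicate 2 (adjusted p = 0.0600). Both Irf4 probe sets had the same direction, and 1 of them passed.

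Maf had the largest change of the 7 genes. At its brightest probe set, 1456060_at, the level was 12.21, 11.97 and 10.38 in SKG replicates 1, 2 and 3, against 8.68, 8.77 and 8.46 in BALB replicates 1, 2 and 3. In deposited intensities these arrays read 4030.3, 3467 and 1587 in SKG and 367, 384 and 402 in BALB cells. SKG replicate 3 was clearly the lowest SKG array and still lay above every BALB array. The means were 11.52 ± 0.99 in SKG and 8.63 ± 0.16 in BALB cells (SD, n = 3 each), and the log2 fold change was 2.89 with an SE of 0.40 (limma adjusted p = 0.00158).

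The other Maf probe sets gave the same direction. The second brightest, 1447849_s_at, stood at 10.27, 9.84 and 8.68 in SKG arrays, against 6.16, 6.50 and 6.01 in BALB arrays, a log2 fold change of 3.37 ± 0.36 (limma adjusted p = 0.000511). The dimmer 1435828_at, 1437473_at and 1444073_at rose by 2.00, 1.95 and 1.95 on the log2 scale, with SKG and BALB arrays apart at each. The last of them lost its call without SKG replicate 1, SKG replicate 2 or BALB replicate 3. The sixth, 1447945_at, was too dim to test, with no array above 4.95. Leaving out single arrays moved the log2 fold change of the brightest Maf probe set between 2.54, without SKG replicate 1, and 3.46, without SKG replicate 3. Without BALB replicate 1, the array with the other sort label, it was 2.91 (limma adjusted p = 0.00853).

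Ahr was read by 1422631_at at 10.34, 10.26 and 9.76 in SKG arrays, against 8.52, 8.68 and 8.32 in BALB arrays. No SKG array came near a BALB array, and the spread within each group was small beside the gap. The means were 10.12 ± 0.32 in SKG and 8.51 ± 0.18 in BALB cells (SD, n = 3 each), and the log2 fold change was 1.61 with an SE of 0.19 (limma adjusted p = 0.000862). Without BALB replicate 1 the log2 fold change of Ahr was 1.62 (limma adjusted p = 0.00635). The second Ahr probe set, 1450695_at, was dim at 5.22 to 5.40 in SKG and 4.62 to 5.26 in BALB arrays and did not pass (log2 fold change 0.36, limma adjusted p = 0.316).

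Rora, the nuclear receptor gene, had 9 probe sets, of which 7 could be tested. All 7 had a negative log2 fold change, from -0.93 to -0.07, and 2 of them passed. At 1455165_at the level was 8.20, 8.27 and 8.80 in SKG arrays, against 9.27, 9.06 and 9.68 in BALB arrays, a log2 fold change of -0.91 ± 0.22 (limma adjusted p = 0.0193). At 1458129_at it was 6.71, 6.79 and 6.11 in SKG arrays, against 7.75, 7.38 and 7.26 in BALB arrays, a log2 fold change of -0.93 ± 0.23 (limma adjusted p = 0.0226). At both the groups were apart, with the highest SKG array below the lowest BALB array.

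The brightest Rora probe set, 1436325_at, did not share that gap, with 9.89, 10.16 and 9.55 in SKG arrays, against 10.06, 9.98 and 9.77 in BALB arrays (log2 fold change -0.07, 95% interval from -0.48 to 0.33). With the replicate number as a block 1420583_a_at passed as well (log2 fold change -0.63, limma adjusted p = 0.0126 with the block and 0.281 without it). Both calls were lost without SKG replicate 1 (adjusted p = 0.0838 for 1455165_at and 0.0524 for 1458129_at) and without BALB replicate 1 (0.0593 and 0.0949). The first was also lost without SKG replicate 2 (adjusted p = 0.0794) and the second without BALB replicate 2 (adjusted p = 0.0555).

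Runx1, the partner of CBF-β in DNA binding, showed no call at any of its 6 tested probe sets with all 6 arrays weighted equally. At the brightest, 1440878_at, the level was 7.05, 7.12 and 7.64 in SKG arrays, against 7.44, 7.21 and 7.29 in BALB arrays. The SKG arrays lay on both sides of the BALB arrays, and the log2 fold change was -0.04 (95% interval from -0.51 to 0.42). At 1427650_a_at and 1452531_at the 3 SKG arrays lay below the 3 BALB arrays, with log2 fold changes of -0.35 and -0.37 that did not pass (limma adjusted p = 0.193 and 0.212). Over the 6 probe sets the log2 fold change ran from -0.56 to 0.04. The lowest value was that of 1422865_at, which passed as lower without BALB replicate 3 (-0.89, limma adjusted p = 0.0289), with array weights (-0.70, adjusted p = 0.0288) and with replicates 1 and 2 only (-0.73, adjusted p = 0.0127).

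Hif1a, whose protein level is set mainly by oxygen-dependent degradation, was read by 4 probe sets that did not move alike. At the brightest, 1427418_a_at, the level was 13.03, 12.96 and 12.81 in SKG arrays, against 12.51, 12.61 and 12.74 in BALB arrays. The groups lay apart by a narrow margin at a log2 fold change of 0.31 ± 0.10 (limma adjusted p = 0.0471), a call lost under 10 of 19 alternatives, among them leaving out SKG replicate 1 (0.171), SKG replicate 2 (0.145), BALB replicate 1 (0.171) or BALB replicate 2 (0.129). At 1416035_at the level was 12.42, 12.20 and 11.94 in SKG arrays, against 11.40, 11.57 and 11.32 in BALB arrays, a log2 fold change of 0.76 ± 0.14 (limma adjusted p = 0.00508). This gap was wider, and it held with each array left out in turn.

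The third Hif1a probe set, 1448183_a_at, followed the replicate number and not the group. It stood at 10.34, 10.28 and 8.12 in SKG replicates 1, 2 and 3, and at 10.14, 10.10 and 8.13 in BALB replicates 1, 2 and 3. In the transfer groups the order was the other way round, with 8.51, 8.32 and 10.34 in the IFN-γ-deficient and 8.30, 8.60 and 10.45 in the IL-6-deficient transfer. Replicate 3 therefore stood apart in all 4 groups, low in SKG and BALB and high in both transfer groups, while the group means differed by 0.13 between SKG and BALB cells (limma adjusted p = 0.922). The fourth, 1431981_at, was dim and did not pass (log2 fold change -0.21, limma adjusted p = 0.831).

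**Figure D2:**
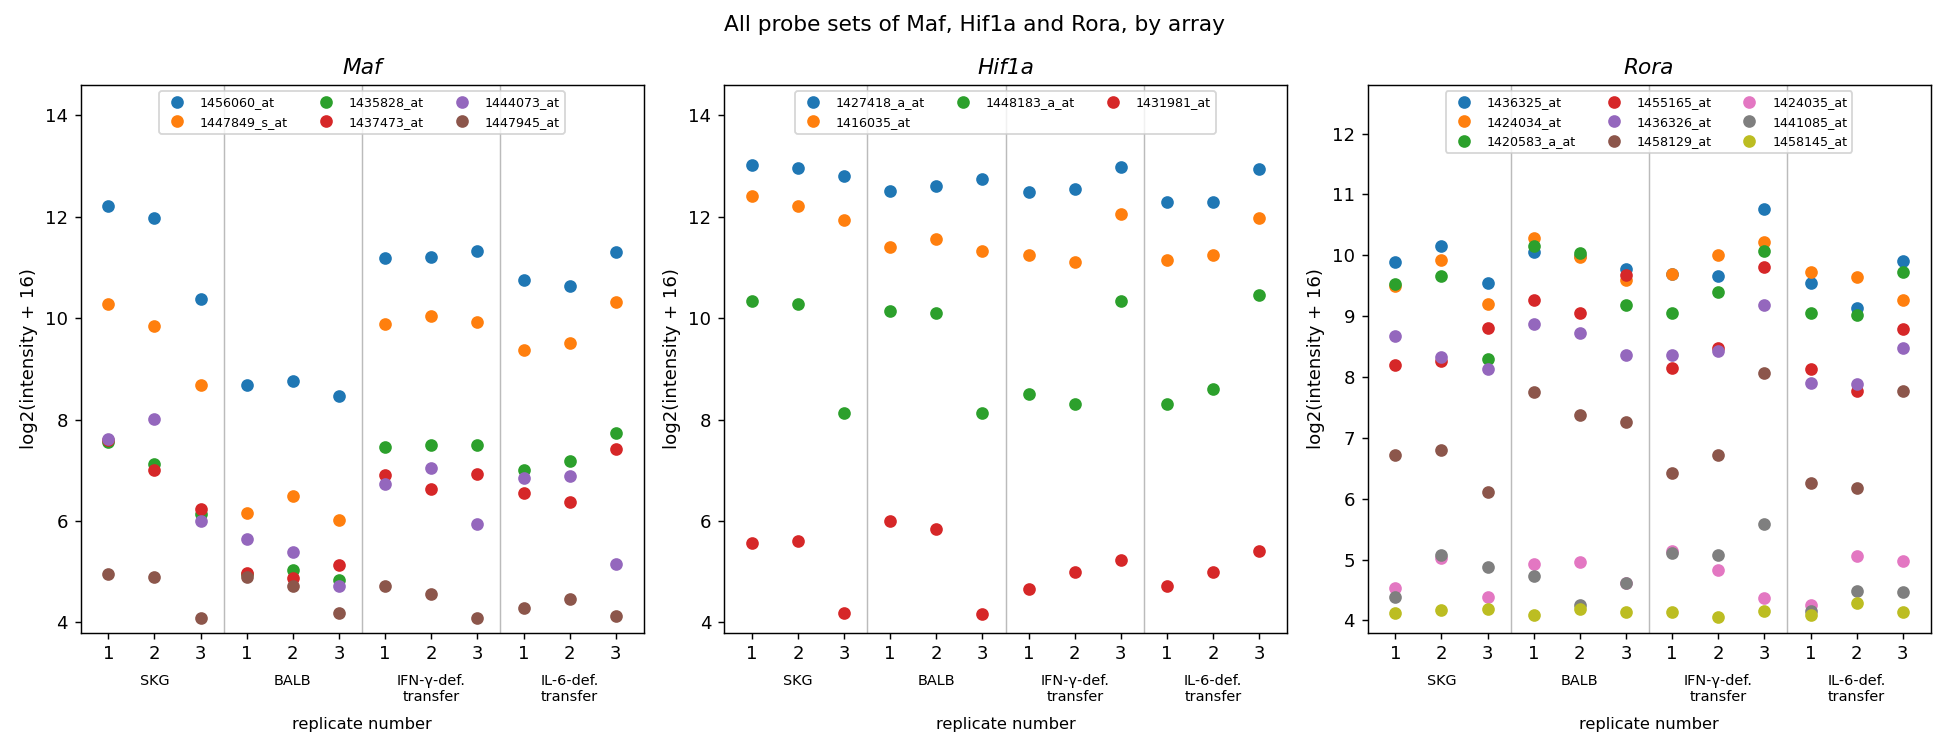
Every probe set of Maf, Hif1a and Rora on every array, as log2(intensity + 16), with replicate numbers on the horizontal axis and 1 colour per probe set. The 2 brightest Maf probe sets step down together in the 3 BALB arrays, and Hif1a 1448183_a_at splits replicate 3 from replicates 1 and 2 in all 4 groups.

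Between the transfer groups the 7 genes showed no call. Of their 30 probe sets 28 were tested, and 0 passed by limma, while 1 had an unadjusted p under 0.05 and 0 passed with the replicate number as a block. Over all 27022 probe sets 12 passed, or 0.0444% (0.0259% higher and 0.0185% lower), with 1105 at an unadjusted p under 0.05, and 301 passed with the block, or 1.11%. Maf (1456060_at) stood at 11.18, 11.22 and 11.33 in the IFN-γ-deficient transfer, against 10.76, 10.64 and 11.31 in the IL-6-deficient transfer. Replicate 3 of the IL-6-deficient transfer lay within the range of the IFN-γ-deficient arrays, and its other 2 arrays lay below. The log2 fold change of 0.34 had a 95% interval from -0.09 to 0.77 (limma adjusted p = 0.99998).

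Setting aside replicate 3 of both transfer groups, the arrays with the highest control ratios, Maf was higher in the IFN-γ-deficient transfer at 2 of its 5 tested probe sets. Maf 1435828_at, 1437473_at and 1444073_at did not pass. The log2 fold changes of those that passed were 0.50 at 1456060_at (limma adjusted p = 0.00805) and 0.52 at 1447849_s_at (limma adjusted p = 0.0246). This choice was made after the data were seen, it left 2 arrays a group, and 2.68% of all probe sets passed under it.

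Ahr (1422631_at) stood at 10.81, 10.83 and 11.35 in the IFN-γ-deficient and at 11.04, 10.97 and 11.48 in the IL-6-deficient transfer, with overlapping groups (log2 fold change -0.16, 95% interval from -0.64 to 0.31). Batf (1419410_at) stood at 11.94, 12.18 and 10.94 in the IFN-γ-deficient transfer, against 11.68, 11.83 and 10.56 in the IL-6-deficient transfer. For Batf the step between replicate 3 and the others exceeded the difference between the groups, which was 0.33 on the log2 scale (95% interval from -0.63 to 1.29; adjusted p = 0.0728 with the block). Irf4 (1421173_at) stood at 12.96, 12.79 and 12.73 in the IFN-γ-deficient transfer, against 12.85, 12.87 and 12.66 in the IL-6-deficient transfer, a difference of 0.03 (95% interval from -0.20 to 0.26).

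Rora (1436325_at) stood at 9.69, 9.67 and 10.76 in the IFN-γ-deficient transfer, against 9.55, 9.13 and 9.90 in the IL-6-deficient transfer, a difference of 0.52 (95% interval from -0.27 to 1.30). All 8 tested Rora probe sets had positive values, from 0.02 to 0.88, and none passed. The largest was the dim 1441085_at, with 5.11, 5.07 and 5.59 in the IFN-γ-deficient transfer, against 4.16, 4.49 and 4.47 in the IL-6-deficient transfer (unadjusted p = 0.00517, limma adjusted p = 0.767). Its mean of 4.37 in the IL-6-deficient transfer lay below the level needed for testing, 4.73, so the IFN-γ-deficient arrays alone brought it into the test. Hif1a (1427418_a_at) stood at 12.48, 12.55 and 12.99 in the IFN-γ-deficient transfer, against 12.28, 12.29 and 12.95 in the IL-6-deficient transfer. Replicate 3 was the highest array of both groups, and the difference of 0.17 did not pass (95% interval from -0.32 to 0.66). Runx1 (1440878_at) stood at 7.20, 7.27 and 7.88 in the IFN-γ-deficient transfer, against 7.30, 7.33 and 8.04 in the IL-6-deficient transfer, a difference of -0.11 (95% interval from -0.77 to 0.56). For Maf, Ahr, Rora, Hif1a and Runx1 replicate 3 was the highest array of both transfer groups, and for Batf and Irf4 it was the lowest.

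**Figure D3:**
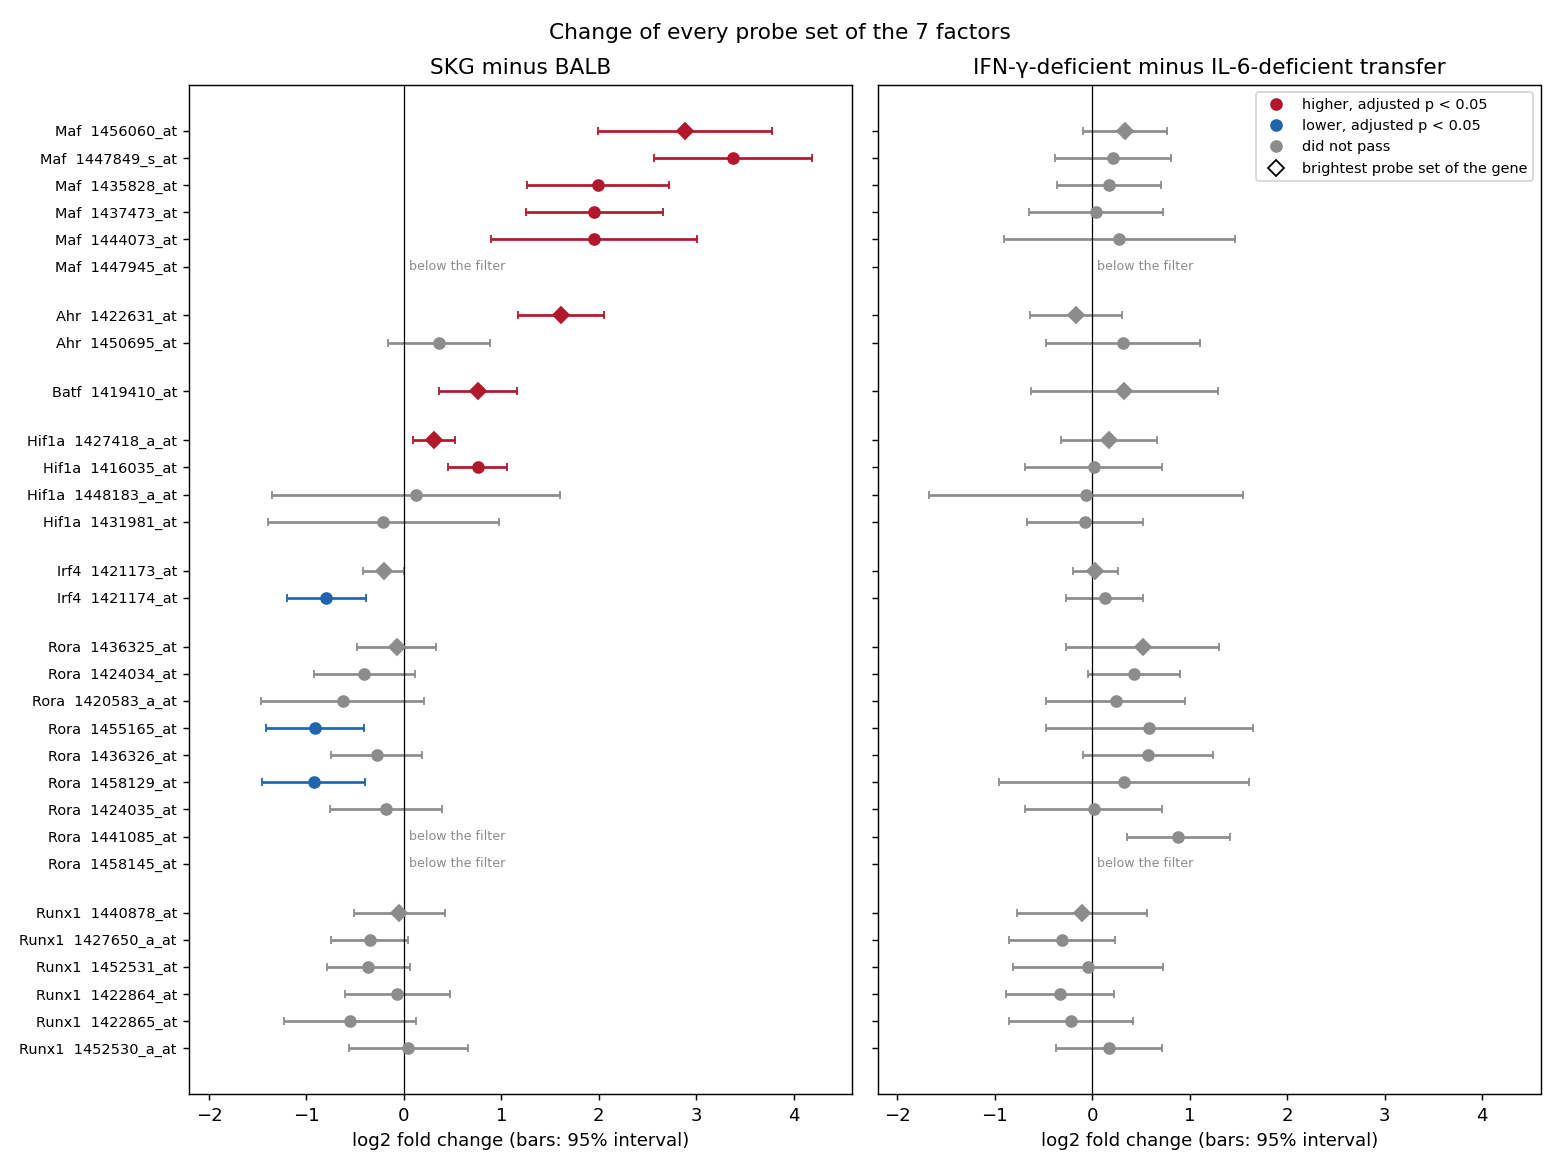
Log2 fold change of each probe set of the 7 genes with its 95% interval, SKG minus BALB on the left and IFN-γ-deficient minus IL-6-deficient transfer on the right. On the left 9 probe sets passed as higher and 3 as lower, and on the right none of 28 tested passed.

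The difference between the comparisons was itself tested over all 12 arrays. Maf and Ahr differed most, with the change in SKG against BALB cells exceeding that between the transfer groups by 2.55 ± 0.51 at Maf 1456060_at (limma adjusted p = 0.0144) and by 1.78 ± 0.30 at Ahr 1422631_at (limma adjusted p = 0.00611). In all, 5 of 28 tested probe sets of the 7 genes had a higher change in the SKG comparison, 4 of Maf and 1 of Ahr, and 1 had a lower change, Irf4 1421174_at (-0.92 ± 0.24, limma adjusted p = 0.0497). That is 21.4% called, beside 4.5% of all probe sets, of which 2.42% were higher and 2.08% lower. With the block 14 passed, 8 higher and 6 lower, beside 18.4% of all probe sets (9.93% higher and 8.48% lower), and the added calls included Batf (0.43, adjusted p = 0.0248) and 5 probe sets of Rora, from -1.50 to -0.84. The count of 6 was 3 without SKG replicate 1 or 2, BALB replicate 1, 2 or 3, or IFN-γ-deficient transfer replicate 1 or 2, and 3 with no filter on dim probe sets. The call of Irf4 1421174_at passed under only 7 of 21 alternatives, with limma adjusted p up to 0.295. Those of Maf 1435828_at and 1437473_at passed under 11 of 21 each, and that of Maf 1447849_s_at under all 21.

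The levels across the 4 groups are a description, since the SKG and BALB groups differ from the transfer groups in age and cell source at once, and the labels name a stimulation for SKG and BALB cells alone. At its brightest probe set Ahr was highest in the IL-6-deficient transfer at a mean of 11.16 and next in the IFN-γ-deficient transfer at 11.00, where the arrays overlapped. SKG at 10.12 and BALB cells at 8.51 followed, each apart from its neighbours. At the dim 1450695_at all neighbouring groups overlapped. At its brightest probe set Maf followed the order SKG (11.52), IFN-γ-deficient transfer (11.24), IL-6-deficient transfer (10.90) and BALB (8.63). There the BALB arrays alone lay apart from their neighbour. At 1447849_s_at and 1435828_at the SKG mean lay below those of both transfer groups. At 1444073_at the BALB arrays overlapped with the IL-6-deficient transfer. Batf had means of 11.69 in the IFN-γ-deficient transfer, 11.36 in the IL-6-deficient transfer, 11.06 in SKG and 10.30 in BALB cells, and again BALB alone was separate. BALB cells were thus the lowest group for Maf, Ahr and Batf at the brightest probe set. For Irf4 they were the highest at 13.28, overlapping with SKG at 13.07, while the IFN-γ-deficient transfer at 12.83 and the IL-6-deficient transfer at 12.79 lay below SKG and overlapped each other. For Rora, Hif1a and Runx1 all neighbouring groups overlapped at the brightest probe set, with group means from 9.52 to 10.04, 12.51 to 12.93 and 7.27 to 7.55.

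Across the 12 arrays the brightest probe sets of Ahr and Maf correlated at a Pearson r of 0.83, Ahr and Batf at 0.66, and Ahr and Irf4 at -0.87. These points share their group, their replicate number and the normalisation, so the values describe these arrays. Among 12175 other genes the 3 with the level pattern most like Maf were Gprin3 (r = 0.983), Zfp317 (0.976) and Tpbg (0.976). For Ahr they were Capza1, Itm2c and Cox17 (each 0.988), and for Batf Supt3 (0.990), Mtx2 (0.988) and Armc6 (0.984). For Irf4 they were Csnk1a1 (0.972), 2410002F23Rik (0.970) and Prps1 (0.970), and for Hif1a P2ry10 (0.973), Sorl1 (0.963) and Rnf157 (0.956). Rora was matched less closely, by Tubgcp3 (0.911), Ankrd12 (0.855) and Ice1 (0.834), and so was Runx1, by Noc4l (0.946), Upf1 (0.934) and Olfr64 (0.908). After the group means were subtracted the first genes were Rsbn1 for Maf (0.981), Fancf for Ahr (0.985), Atf6b for Batf (0.992), Lcmt2 for Irf4 (0.983), Paxbp1 for Hif1a (0.985), Snx4 for Rora (0.966) and Cox7a2l for Runx1 (0.992), none of which was among the 3 of the same factor before.

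The genes that work with the 7 factors were read by the brightest probe set of each, where 25.1% of 12079 genes passed between SKG and BALB cells, 14.4% higher and 10.7% lower, at a median log2 fold change of 0.06. With the replicate number as a block 33.3% passed there, and 1.54% between the transfer groups. Partners and relatives of BATF and IRF4 fell: 6 of 8 were lower in SKG cells and none was higher, with a median of -1.08. These were the AP-1 subunit genes Jun (-2.18), Fosl1 (-1.75), Fos (-1.26) and Jund (-0.90), the AP-1 competitor Bach2 (-1.88) and the IRF family gene Irf8 (-0.71), while Junb (0.00) and Batf3 (0.54) did not pass. Jun averaged 8.15 ± 0.30 in SKG and 10.33 ± 0.05 in BALB cells (SD, n = 3 each; limma adjusted p = 0.000150). Batf itself was thus higher in SKG cells, beside lower levels of 4 AP-1 subunit genes. Between the transfer groups 0 of these 8 passed by limma, and 1, Fos, passed with the block (-0.66, adjusted p = 0.0293).

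The Th17 effector genes analysed here were all higher in SKG cells, 5 of 5 at a median log2 fold change of 3.58, beside 14.4% of all genes called higher. Il17a (4.87) and Il21 (3.24) encode cytokines, Ccl20 (3.65) and Ccr6 (2.92) a chemokine and its receptor, and Il1r1 (3.58) a receptor for interleukin 1. The BALB mean of Il1r1, 4.52, lay below the level needed for testing, 4.73, so its SKG arrays alone brought it into the test. Il17a averaged 12.85 ± 0.13 in SKG and 7.99 ± 0.57 in BALB cells (SD, n = 3 each; limma adjusted p = 1.35e-05). Between the transfer groups Il1r1 (4.05) and Ccl20 (2.94) passed as higher in the IFN-γ-deficient transfer, beside 0.0897% of all genes with a call and 0.0489% with a higher one, and all 5 passed with the block. The count of 2 was 0 without IFN-γ-deficient transfer replicate 1 or 2 or IL-6-deficient transfer replicate 1, 1 without IFN-γ-deficient transfer replicate 3 or IL-6-deficient transfer replicate 2, and 4 without IL-6-deficient transfer replicate 3. Of 7 genes listed as other regulators of the fate, 1 was higher in SKG cells, a share near the 14.4% of all genes called higher. It was Rbpj, the effector of Notch signalling (1.25, limma adjusted p = 0.000948). Stat3 (-0.15), Nfkbiz (-0.22), Fosl2 (-0.41) and Smad3 (-0.65) did not pass, and Ikzf3 (0.78) passed as higher with the block alone (limma adjusted p = 0.00392 with the block and 0.0779 without it).

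Among 9 regulators that oppose the fate 3 were lower in SKG cells and 1 was higher, beside 10.7% lower and 14.4% higher of all genes. Tbx21, the Th1 factor T-bet, fell by 1.06 on the log2 scale, Stat5a by 0.71 and Gfi1 by 0.60. Foxp3, the factor of regulatory T cells, was higher by 1.76 (8.21 ± 0.37 in SKG and 6.45 ± 0.10 in BALB cells; SD, n = 3 each; limma adjusted p = 0.000926). With the block Bcl6 (-0.68, limma adjusted p = 0.0391) and Stat5b (-0.49, adjusted p = 0.0252) passed as lower too, which made 5. None of the 9 passed between the transfer groups, and with the block Gata3 passed as lower in the IFN-γ-deficient transfer (-0.68, limma adjusted p = 0.00920).

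Of 6 genes induced by AHR 4 were bright enough to test and 1 passed, a share near the 25.1% of all genes. It was Cyp1b1, a cytochrome P450 gene (1.31, with 5.62 ± 0.93 in SKG and 4.31 ± 0.13 in BALB cells; SD, n = 3 each; limma adjusted p = 0.0491). The BALB mean of Cyp1b1 lay below the level needed for testing, 4.73, so its SKG arrays alone brought it into the test. Tiparp (-0.03), Cyp1a1 (0.18) and Nqo1 (-0.09) did not pass. Of these only Tiparp was bright, at 10.56 in SKG and 10.59 in BALB cells. Cyp1a1 averaged 4.95 in SKG and 4.78 in BALB cells, and Nqo1 4.86 and 4.95. Both lay close to the level needed for testing, so a change in them can hardly be judged. Of 8 tested partners and regulators of AHR and HIF-1, 2 passed, both as higher, again a share near the 25.1% of all genes. They were Arnt2, a dimerisation partner (1.06), and Egln3, a prolyl hydroxylase that marks HIF-1α for degradation (0.78), and Arnt (0.36) did not pass. Between the transfer groups none of these lists had a call, and with the block Epas1, which encodes HIF-2α, was lower in the IFN-γ-deficient transfer (-1.55, limma adjusted p = 0.000364).

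Genes induced by HIF-1 moved in both directions. Of 18 tested 6 were lower in SKG cells and 2 were higher, at a median of -0.21. Over all genes 10.7% were lower and 14.4% higher. The lower genes were Ndrg1 (-2.74), Vegfa (-1.41), Pfkfb4 (-1.28), Ankrd37 (-1.25), Bnip3 (-1.16) and P4ha1 (-1.0). The higher ones were Hk2 (0.95), which encodes a hexokinase, and Egln3 (0.78), and the glycolysis genes Ldha (0.22), Aldoa (0.09) and Pgk1 (-0.01) did not pass. Ndrg1 averaged 9.69 ± 0.71 in SKG and 12.43 ± 0.10 in BALB cells (SD, n = 3 each; limma adjusted p = 0.000477). With the block P4ha2 (-0.77, limma adjusted p = 0.0343) and Pgam1 (-0.45, adjusted p = 0.00797) passed as lower too, which made 8 lower genes. The count of 8 in both directions without the block was 5 without SKG replicate 2, and none of 19 passed between the transfer groups. Of the factors' own families, Maff, a small MAF protein gene, fell by 1.87 on the log2 scale in SKG cells (limma adjusted p = 0.000109), and Mafk (-0.23) and Mafg (0.01) did not pass. With the block alone Maff was also lower in the IFN-γ-deficient than in the IL-6-deficient transfer (-0.67, limma adjusted p = 0.0311). Runx3, the RUNX gene of cytotoxic and Th1 cells, fell by 0.82 (limma adjusted p = 0.00797), and Cbfb (0.36) passed with the block alone (limma adjusted p = 0.0115 with the block and 0.0590 without it).

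**Figure D4:**
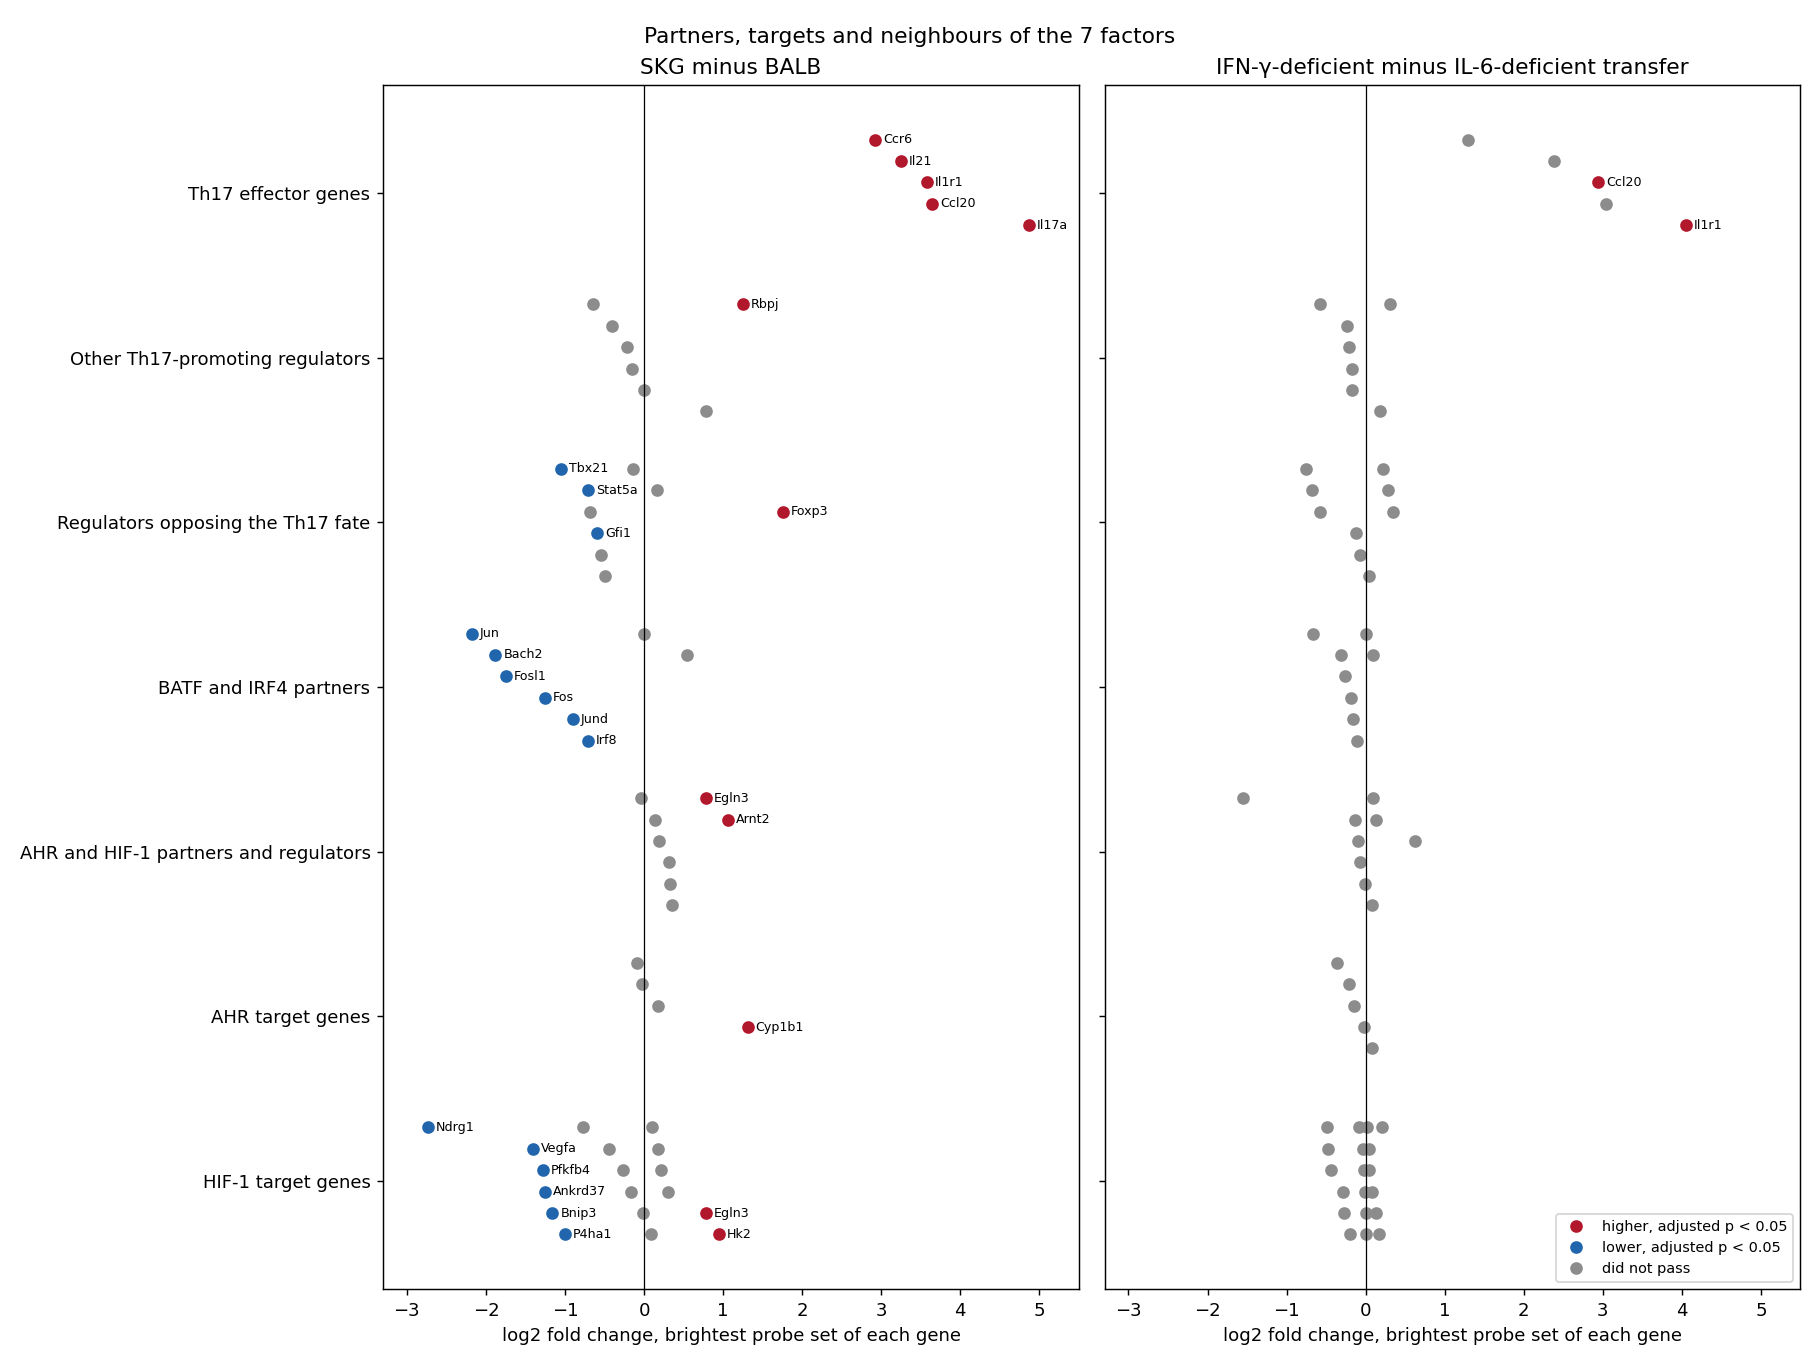
Log2 fold change of the brightest probe set of each gene in 7 lists of partners, targets and neighbours of the factors, SKG minus BALB on the left and IFN-γ-deficient minus IL-6-deficient transfer on the right; the vertical spread within a list separates the points. On the left 5 Th17 effector genes lie to the right and 6 AP-1 and IRF genes to the left, and on the right Ccl20 and Il1r1 alone passed.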

How the data were processed

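The authors deposited a linear intensity for every probe set on every array. Per the labels' protocols, RNeasy-purified RNA was biotin-labelled through in vitro transcription. Neither the software nor any scaling behind the deposited intensities is named, and both are thus not given in the sources used here. Control probe sets (64 of 45101) were left out, 16 was added, log2 taken and the 12 arrays quantile normalised together. Genes were named by the platform annotation where it lists 1 gene (34958 probe sets), with symbols updated by gene ID for 34754. The array has no stated build, so no probe coordinates are given. Probe sets whose mean over a comparison's arrays lay under the 40th percentile were not tested.

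Each comparison was fitted on its 6 arrays, and their difference on all 12, using lmFit and trend-aware eBayes from limma 3.58.1 (R 4.3.3). Tests were two-sided, and p-values were adjusted by Benjamini-Hochberg over 27022 probe sets, with 0.05 as threshold. Intervals are 95% intervals from these fits. The fits were tested on simulated data. The brightest probe set over 12 arrays stood for a gene in the lists, and several listed genes are not analysed here. The 7 genes, the gene lists and the tests were chosen with earlier results of these data known. Named genes were all 7 factors, up to 4 genes of each list with the smallest p, all passing genes of a list with 5 or fewer, further list genes chosen after their values were seen, and the 3 most alike by Pearson correlation. The number of arrays limits the precision.

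Replicate numbers 1 to 3 recur in all 4 groups of the labels. Deviations from the group means of same-numbered arrays correlated at 0.15, 0.17 and 0.35 for SKG with BALB. For the transfer groups the values were 0.43, 0.41 and 0.68, so same-numbered arrays deviated together. The reported fits carry no pairing, and fits that block on replicate number are quoted where they change a call. Replicate 1 of one group correlated with replicate 2 of the other as well, at 0.19 and 0.15 and at 0.42 and 0.38, so the block acts mainly on replicate 3. Alternatives were added constants of 1 and 64, a filter at the 60th percentile or none, no normalisation, trimmed mean scaling, quantile normalisation of 6 arrays, brightest or median probe set per gene, no trend, the replicate block, array weights, a joint fit of all arrays and leaving out each array. Replicates 1 and 2 alone were added after the data were seen.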

Additional observations from a re-analysis of the deposited data

Results flagged for a closer look

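The change of Ahr in SKG against BALB cells exceeded its change between the transfer groups by 1.78 ± 0.30 on the log2 scale (SE; limma adjusted p = 0.00611 over 12 arrays, and 2.68e-05 with the replicate number as a block), so the effect differed between the comparisons. All 3 SKG arrays lay above all BALB arrays, and the transfer arrays overlapped. The test passed under 22 of 23 alternatives and was lost when probe sets of a gene were summarised by their median (adjusted p = 0.125).

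The change of Maf exceeded that between the transfer groups by 2.55 ± 0.51 (limma adjusted p = 0.0144 without and 0.000463 with the block). It passed under 23 of 23 alternatives, with adjusted p up to 0.0480. SKG and BALB cells differ from the transfer groups in age and cell source, and the labels name a stimulation for SKG and BALB cells alone; the part of these in either difference cannot be told apart.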

How the results depend on the processing

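Between SKG and BALB cells 5442 probe sets passed. The count was 3101 with no normalisation, 3367 with the brightest probe set per gene, 2850 with median probe sets, 8972 with array weights and 9032 with replicates 1 and 2 only, and it ran from 2953 to 6479 with each array left out. For the 7 factors 12 probe sets passed. Their count was 7 with no normalisation and 7 with all 12 arrays in one fit, 4 genes with brightest and 4 with median probe sets, and 6 to 13 with each array left out, where calls outside the 12 were counted too. Between the transfer groups 12 passed. This became 39 with all 12 arrays in one fit, 7 with no intensity trend, 167 with array weights, 725 with replicates 1 and 2 only and 2 to 36 with each array left out, and 2 probe sets of the factors, both of Maf, passed with replicates 1 and 2 only. With trimmed mean scaling 13 passed, 69.2% of them higher, beside 58.3%. For the difference between the comparisons 1216 passed. This was 570 with no normalisation, 780 with median probe sets, 5617 with array weights and 552 to 2031 with each array left out. For the factors 6 passed, and their count, which takes in other probe sets that came to pass, was 3 with no filter, 2 with brightest, 2 with median probe sets, 11 with array weights and 3 to 6 with each array left out. The replicate block gave 7515 and 13 between SKG and BALB cells, 301 and 0 between the transfer groups, and 4973 and 14 for the difference, and it ended no call of the factors. Tests per gene and of fewer arrays run on fewer values by construction, and otherwise the cause was not tested. Maf and Ahr kept direction and call between SKG and BALB cells under all 20 alternatives, from 1.95 to 3.46 and from 0.99 to 1.79 on the log2 scale. Maf 1447945_at and Rora 1458145_at lie near the level of an intensity of 0, and no change in them can be judged.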
